A study of Rattus norvegicus with 12 samples.

Results

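The genes described here build the protein lattice under the receptors of a synapse and the adhesion molecules that hold its sides together. They were chosen by name, with earlier results of these data known. Of 42 symbols of postsynaptic scaffolds and synaptic adhesion molecules, 39 were found in the count table of 17337 genes. *Ptprd*, *Lrrtm1* and *Cntnap2* were not analysed here. RNA was sequenced from the striatum of 12 male Sprague-Dawley rats, 1 library a rat, that had self-administered methamphetamine (MA) for 16 days. The rats labelled MA12 (n = 4) and MA24 (n = 4) were killed 12 and 24 h after the last session, so the length of abstinence and the time of day cannot be told apart. The other 4 rats are labelled non-addicted, and neither the criterion for that label nor the time of killing is given in the sources used here. All 12 rats are labelled wild type, and no rat that had never taken MA was analysed here.

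At an excitatory synapse, presynaptic neurexins bind neuroligins and LRRTM proteins across the cleft. On the postsynaptic side the MAGUK scaffolds (the DLG proteins) gather glutamate receptors and neuroligins, the SAPAP proteins (encoded by the *Dlgap* genes) join MAGUKs to SHANKs, and SHANKs connect onward to Homer and to actin. In the striatum these assemblies sit mainly on the spines of projection neurons that receive cortical and thalamic input, and mice without *Dlgap3* or *Shank3* are known for repetitive grooming.

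Sequencing gave 17908962 to 23850284 counts per rat, and member counts ran from 51 (*Lrfn2*) to 45142 (*Dlgap3*), so that no member was at 0 in any rat. Levels are given as log2 CPM, the log2 of counts scaled to library size with TMM factors, and they compare rats for 1 gene but not genes with each other, since gene length was not divided out. The SD of a member's log2 CPM within a group had a median of 0.155. Markers of the labelled tissue were counted in every rat. The summed level of 12 striatal projection neuron markers was 14490 to 18480 CPM in MA12, 17210 to 18980 in MA24 and 14520 to 17520 in non-addicted rats. The 8 cortical markers in the table summed to at most 31.7 CPM in any rat. Gene length was not divided out of these sums either, so the lists compare only roughly. In bulk tissue, fewer cells of a type and less RNA per cell cannot be told apart. The rat numbers also fall into 2 kinds, with and without a trailing N, whose meaning is not given. All 4 MA24 rats, 2 of the 4 MA12 rats (4N and 7N) and none of the non-addicted rats carry the N.

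The comparison of MA24 with MA12 asks what differed between 12 and 24 h after the last session. Of the 39 members, 37 were tested, and 6 fell: *Slitrk1*, *Nrxn3*, *Cask*, *Dlgap2*, *Magi1* and *Cadm2*. None rose. They make up 16.2% of the members tested, whereas 5.16% of the 10754 genes tested passed in either direction, 3.32% as lower and 1.84% as higher (edgeR quasi-likelihood test, Benjamini-Hochberg adjusted p below 0.05). *Cadm2* fell by 25.2% and *Nrxn3* by 31.0%, the ends of the range. None of the 6 reached the 1.5-fold that a DEG in this study needs beside the adjusted p. Of all genes, 2.45% were DEGs. The log2 fold change (log2FC) was below 0 for 30 of the 37 members, against 51.7% of all genes, and its median was -0.24, against -0.02 over all genes. *Ptprs* and *Lrfn5* were removed as genes of low variance, and without that filter their log2FC were 0.05 and -0.11.

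Promoter sequences are shown here for the genes that fell, so that their start regions can be read beside the values below. Of the 6 genes, 4 were in the RefSeq promoter table of the GRCr8 rat assembly, whereas the counts were made on rn6. Each sequence covers 250 bases before to 50 after the gene's start, read 5′ to 3′ on the strand given. Capitals mark matches on either strand to an E-box (CACGTG), a cAMP response element (TGACGTCA), a GC box (GGGCGG) or a TATA box (TATAAA), and matches that overlap run together. The windows are chrX:11572386-11572685 on the plus strand for *Cask*, and chr4:128368177-128368476 for *Magi1*, chr11:18971837-18972136 for *Cadm2* and chr15:92141692-92141991 for *Slitrk1*, all on the minus strand.
Cask: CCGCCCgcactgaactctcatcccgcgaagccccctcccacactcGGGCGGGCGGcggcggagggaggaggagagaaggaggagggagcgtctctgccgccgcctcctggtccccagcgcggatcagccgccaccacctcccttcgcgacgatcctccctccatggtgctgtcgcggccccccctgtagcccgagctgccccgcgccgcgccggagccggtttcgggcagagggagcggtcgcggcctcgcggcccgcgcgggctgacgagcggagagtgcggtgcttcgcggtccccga
Magi1: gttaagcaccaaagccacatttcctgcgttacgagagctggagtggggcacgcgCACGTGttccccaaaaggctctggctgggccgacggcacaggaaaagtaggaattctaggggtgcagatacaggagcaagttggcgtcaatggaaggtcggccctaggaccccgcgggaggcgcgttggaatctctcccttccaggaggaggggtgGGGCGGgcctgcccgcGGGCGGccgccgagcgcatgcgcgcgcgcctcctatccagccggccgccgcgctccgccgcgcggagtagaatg
Cadm2: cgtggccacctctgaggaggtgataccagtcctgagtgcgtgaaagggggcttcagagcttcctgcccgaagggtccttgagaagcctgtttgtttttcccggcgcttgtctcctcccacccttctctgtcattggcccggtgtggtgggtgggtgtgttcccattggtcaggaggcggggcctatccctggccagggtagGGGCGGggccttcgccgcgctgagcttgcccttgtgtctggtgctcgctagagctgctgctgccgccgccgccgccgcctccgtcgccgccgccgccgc
Slitrk1: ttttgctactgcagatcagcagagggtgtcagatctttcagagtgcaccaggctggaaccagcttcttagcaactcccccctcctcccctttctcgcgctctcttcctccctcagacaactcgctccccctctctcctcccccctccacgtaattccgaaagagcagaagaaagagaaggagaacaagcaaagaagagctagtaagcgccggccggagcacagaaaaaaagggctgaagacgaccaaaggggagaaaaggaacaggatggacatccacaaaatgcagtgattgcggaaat

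The *Cask* window was 75.3% G or C and held 3 GC boxes, the *Magi1* window was 66.7% G or C with 1 E-box and 2 GC boxes, and the *Cadm2* window was 67.0% G or C with 1 GC box. The *Slitrk1* window was 52.7% G or C, close to the median of 51.7% over the 33469 promoters in the table, and held none of these letters. The table held 30 windows for 29 of the 39 members, with 2 windows for *Dlgap1*. GC boxes occurred in 33.1% of all promoters and in 11 of these 30 (36.7%), and E-boxes in 6.42% and in 3 of 30. cAMP response elements occurred in 1.83% of all promoters and in 2 of 30 of the members', and TATA boxes in 14.2% and in 2 of 30. No motif was shared by all 4 windows. A match is a description of letters and says nothing about binding.

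*Slitrk1* encodes a leucine-rich repeat protein of the postsynaptic membrane that binds receptor phosphatases across the cleft. Its log2 CPM was 5.51, 5.45, 5.16 and 5.18 in MA12 rats 21, 31, 4N and 7N, and 4.90, 4.85, 4.73 and 4.70 in MA24 rats 9N, 14N, 15N and 16N. Every MA24 rat was below every MA12 rat. The level fell by 0.53 on the log2 scale (SE 0.11, edgeR adjusted p = 0.0128), which is 31.0%. In non-addicted rats 9, 11, 12 and 13 it was 4.95, 5.62, 5.30 and 4.99, a wide spread that lay above MA24 throughout and overlapped MA12. *Slitrk3*, its relative at inhibitory synapses, had a log2FC of -0.30 (adjusted p = 0.148).

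*Nrxn3* encodes a presynaptic neurexin and had the lowest log2FC of the 37 members. It measured 7.31, 7.12, 7.18 and 7.18 log2 CPM in MA12, with little spread, and 6.90, 6.29, 6.76 and 6.64 in MA24. The 2 groups did not overlap. The fall was 0.54 on the log2 scale (SE 0.12, adjusted p = 0.0147). Non-addicted rats stood between them at 6.83, 6.96, 7.04 and 6.91, all below the MA12 rats and overlapping MA24 rat 9N. *Nrxn2* had a log2FC of -0.11 (SE 0.10, adjusted p = 0.544).

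*Cask* encodes a MAGUK that binds the tails of neurexins inside the presynaptic terminal. Its 4 MA12 rats measured 4.86, 4.98, 4.94 and 4.79 log2 CPM and its 4 MA24 rats 4.31, 4.40, 4.50 and 4.39, so that the groups were apart by more than the range of either. *Cask* fell by 0.49 on the log2 scale (SE 0.11, adjusted p = 0.0154). The non-addicted rats measured 4.57, 4.96, 5.09 and 4.62, above every MA24 rat.

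Among the other MAGUKs, which sit mainly on the postsynaptic side, the order of the genes by log2FC ran with how many counts they had. The log2FC was -0.40 for *Dlg2* (adjusted p = 0.0680), -0.32 for *Dlg3* (adjusted p = 0.0789) and -0.21 for *Dlg1* (adjusted p = 0.206), with overlapping groups for each. *Dlg4*, which encodes the chief scaffold of the excitatory postsynaptic density, had a log2FC of 0.20 (SE 0.11, adjusted p = 0.281). Its levels were 10.27, 10.57, 10.77 and 10.63 in MA12 and 10.71, 10.67, 10.71 and 10.97 in MA24.

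*Dlgap2*, a SAPAP scaffold, measured 5.58, 5.63, 5.69 and 5.73 log2 CPM in MA12, the narrowest spread of the 6 genes, and 5.35, 4.71, 5.03 and 5.44 in MA24. All 4 MA24 rats were lower. The fall was 0.50 on the log2 scale (SE 0.13, adjusted p = 0.0329). Leaving out MA24 rat 14N brought it to 0.38 with an adjusted p of 0.0799. *Dlgap1* was also lower in every MA24 rat, at 6.98, 6.82, 6.75 and 6.80 in MA12 and 6.55, 6.47, 6.69 and 6.63 in MA24, but its log2FC of -0.25 did not pass (adjusted p = 0.118). *Dlgap3*, the SAPAP of the striatum, went the other way in value, with a log2FC of 0.33 (SE 0.16, adjusted p = 0.211). Its lowest rat of all was MA12 rat 21 at 9.96 and its highest MA24 rat 16N at 11.22, and the log2FC was 0.19 without rat 21 and 0.18 without rat 16N. *Dlgap4* stood at -0.03.

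The SHANK and Homer genes had no member past the test. *Shank3* had a log2FC of 0.26 (SE 0.15, adjusted p = 0.311), with 9.28, 9.84, 9.98 and 9.61 in MA12 and 9.91, 9.63, 9.78 and 10.40 in MA24, while *Shank2* had -0.42 (adjusted p = 0.149) and *Shank1* -0.12. *Homer2* and *Homer3*, which tether metabotropic glutamate receptors, had log2FC of -0.26 and 0.26. All 5 overlapped between groups. *Gphn*, which encodes gephyrin, the scaffold of inhibitory synapses, had -0.17 (SE 0.09, adjusted p = 0.295).

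*Magi1*, a scaffold with PDZ and WW domains, measured 4.80, 4.67, 4.57 and 4.58 log2 CPM in MA12 and 4.28, 3.83, 4.20 and 4.42 in MA24. The groups did not overlap, and the level fell by 0.46 on the log2 scale (SE 0.13, adjusted p = 0.0453). Non-addicted rats ranged from 4.14 to 4.90 and spanned most of both groups. *Magi2* had a log2FC of -0.20 (adjusted p = 0.254).

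The receptor-trafficking and actin adaptors included no gene past the test. *Pick1*, which takes part in the internalization of AMPA receptors, was the only member whose MA24 rats all stood above the MA12 rats, at 5.98, 6.20, 6.03 and 6.23 against 5.81, 5.78, 5.82 and 5.97. Its log2FC was 0.27 (SE 0.10, adjusted p = 0.115). *Baiap2*, which links small GTPases to actin in spines, had 0.10, and *Grip1*, an AMPA receptor binding protein, had -0.11.

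Of the remaining adhesion molecules, the neuroligins, the LRRTMs and the Ig-domain SynCAM proteins (*Cadm* genes) all had log2FC below 0, and 1 of these 9 genes passed. *Cadm2* measured 5.21, 5.04, 5.36 and 5.24 in MA12 and 5.05, 4.54, 4.79 and 4.76 in MA24. MA12 rat 31 stood just below MA24 rat 9N, so *Cadm2* was the only called gene whose groups were not apart. It fell by 0.42 on the log2 scale (SE 0.12, adjusted p = 0.0472). *Cadm3* was lower in every MA24 rat, at 6.99 to 7.22 against 7.31 to 7.50 in MA12, with a log2FC of -0.24 (adjusted p = 0.134), and *Cadm1* had -0.33 (adjusted p = 0.102).

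*Nlgn1*, *Nlgn2* and *Nlgn3*, which serve mainly excitatory, inhibitory and both kinds of synapse, had log2FC of -0.32, -0.24 and -0.27, with adjusted p from 0.118 to 0.222. *Lrrtm2* was lower in every MA24 rat, at 5.83 to 6.12 against 6.19 to 6.53, with a log2FC of -0.36 (SE 0.11, adjusted p = 0.0623). *Lrrtm3* and *Lrrtm4* had -0.20 and -0.26. *Cntnap1*, which encodes a protein of the axon beside the nodes of Ranvier, had 0.17, and *Cntnap4* had -0.36 with overlapping groups. *Lrfn1* and *Lrfn2* stood at -0.10 and -0.12.

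Groups did not overlap for 9 of the 37 members, 8 lower and 1 higher, against 15.6% of all genes tested (8.4% lower and 7.16% higher). At an unadjusted p below 0.05 there were 17 lower and 3 higher members, against 13.1% and 10.5% of all genes. The plot of fold changes shows the whole set.

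**Figure D1:**
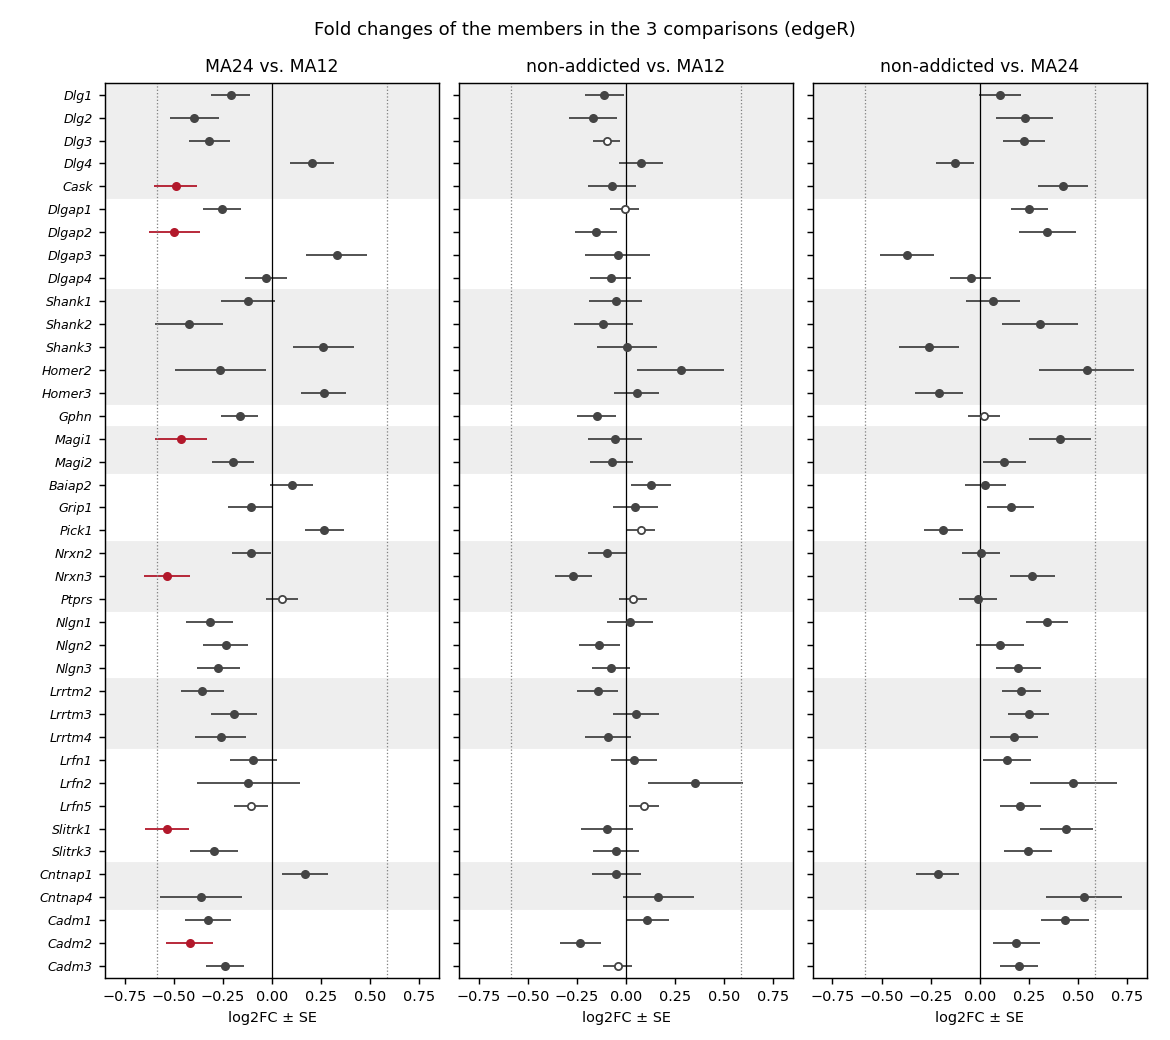
log2FC ± SE of the 39 members in the 3 comparisons (edgeR), ordered by role with shading between roles. Red marks an adjusted p below 0.05, open points are genes removed by the variance filter and taken from the fit without it, and dotted lines mark 1.5-fold. The 6 red points are all in MA24 vs. MA12 and all left of 0.

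**Figure D2:**
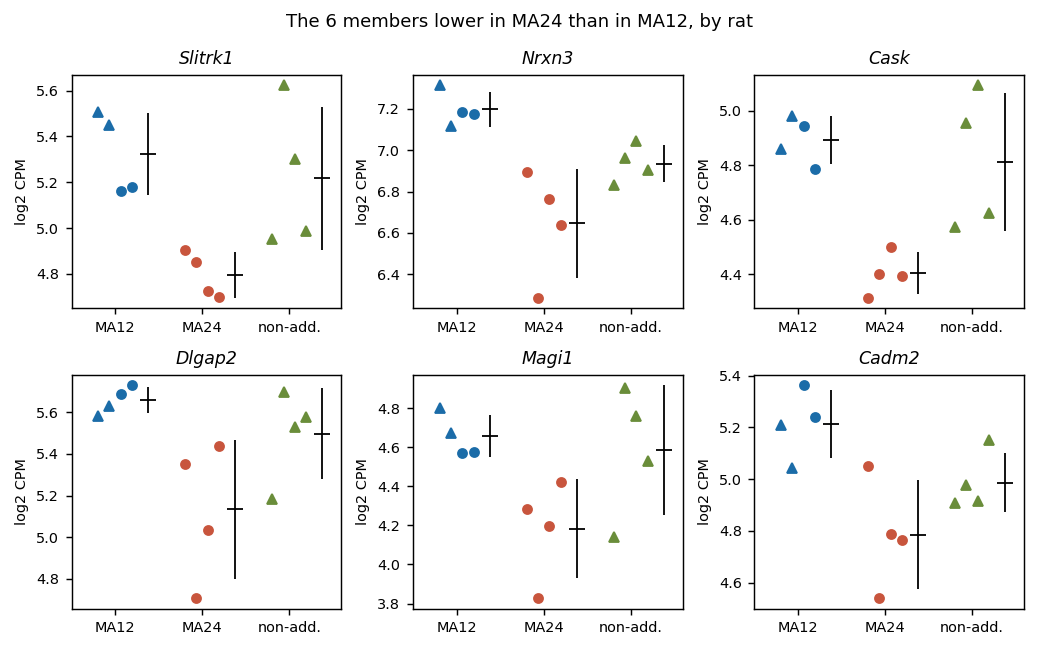
log2 CPM of the 6 genes that fell in MA24 vs. MA12, 1 point a rat, with the mean ± SD of each group in black. Circles are rats whose number carries an N and triangles are rats without it. *Slitrk1* in MA12 splits by kind of number, 5.16 and 5.18 with the N against 5.45 and 5.51 without.

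The kind of rat number bears directly on these calls. When the 4 MA24 rats were compared only with MA12 rats 4N and 7N, no member passed, with 10 at an unadjusted p below 0.05. With the kind of number as a covariate no member passed either, with 11 at an unadjusted p below 0.05. Since all MA24 rats carry the N, that fit rests on the same contrast of MA24 with rats 4N and 7N. It is therefore not a separate check. Both fits also lost calls among all genes, to 1.22% and 0.456% past the test, and the first uses 6 rats. DESeq2 was not run on these subsets. The log2FC stayed below 0 for all 6 genes: for *Slitrk1* it was -0.36 with N rats only (adjusted p = 0.238), for *Nrxn3* -0.51 (adjusted p = 0.0635), for *Cask* -0.45 (adjusted p = 0.144), for *Dlgap2* -0.54 (adjusted p = 0.0870), for *Magi1* -0.37 (adjusted p = 0.337) and for *Cadm2* -0.49 (adjusted p = 0.104). The values above 0 shrank: with N rats only, the log2FC was 0.10 for *Dlgap3*, 0.083 for *Dlg4* and 0.17 for *Shank3*, and with the covariate it was 0.088, 0.066 and 0.15. Without MA24 rat 16N, *Shank3* stood at 0.080 and *Dlg4* at 0.13. Under the 16 other ways of fitting, *Slitrk1*, *Nrxn3* and *Cask* passed each time, *Dlgap2* in 9, *Magi1* in 6 and *Cadm2* in 7. The plot by way of fitting shows this.

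**Figure D3:**
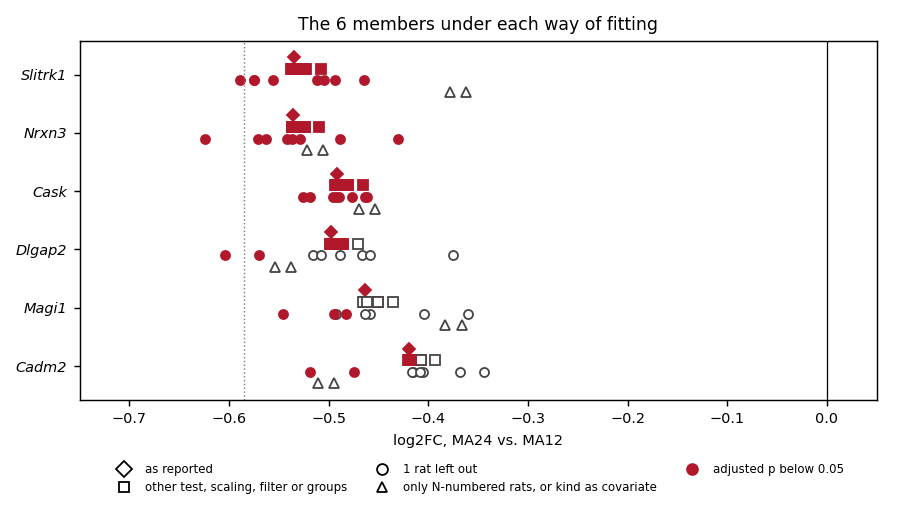
log2FC of the 6 genes in MA24 vs. MA12 under each way of fitting: as reported (diamond), with another test, scaling, filter or set of groups (squares), with 1 rat left out (circles), and with only N-numbered rats or the kind of number as a covariate (triangles). Red is an adjusted p below 0.05, and the dotted line marks a 1.5-fold fall. Every point is below 0, and no triangle is red.

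The members with few counts and those with many differed in the sign of their median. With the kind of rat number taken into account both medians were below 0, and that of members with few counts stayed lower. The 15 tested members with a mean count under 1000 had a median log2FC of -0.32, with 5 past the test, against a median of -0.04 over the 7744 genes in that range. The 14 members between 1000 and 5000 counts had a median of -0.25, with 1 past the test, against 0.01 over 2444 genes. The 8 members above 5000 counts had a median of 0.13, with none past the test by edgeR and 5 above 0, and the 566 genes in that range also had a median of 0.13. With the kind of number as a covariate, the median of these 8 members was -0.02 with 3 above 0, and that of the 15 members under 1000 counts was -0.25. In the fit with N rats only, which rests on the same contrast, 9 members above 5000 counts were tested, and 4 of them were above 0. Their median was -0.0049, against -0.23 for the 15 members under 1000 counts.

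Within a rat, the difference between the member of a family with the most counts and the one with the fewest followed from the same values. The difference *Dlgap3* minus *Dlgap2* was 4.38, 4.86, 5.20 and 4.90 log2 units in MA12, 5.42, 5.96, 5.66 and 5.78 in MA24 and 4.99, 4.76, 4.87 and 5.28 in non-addicted rats. MA24 stood above all other rats. *Shank3* minus *Shank2* was 5.60 to 5.91 in MA24, above 4.58 to 5.25 in MA12 and in non-addicted rats, where the highest was 5.18. *Dlg4* minus *Dlg2* averaged 3.34 ± 0.11 in MA12 and 3.97 ± 0.28 in MA24 (SD, n = 4), and *Nrxn2* minus *Nrxn3* averaged 1.90 ± 0.19 and 2.34 ± 0.17, with no overlap for either. Non-addicted rats averaged 3.61 ± 0.25 for the first, where rat 9 at 3.99 stood above MA24 rats 9N (3.62) and 15N (3.90), and 2.07 ± 0.08 for the second. In the other 8 families the MA12 and MA24 rats overlapped. These 4 pairs were singled out after their values were seen, and the differences were not tested. How often such differences are apart over other pairs of genes is not given here. Of single genes tested, 15.6% were apart between MA24 and MA12. All genes had a median log2FC of 0.13 above 5000 counts, 0.01 from 1000 to 5000 and -0.04 under 1000. A difference of a gene with many counts minus one with few thus leans above 0 in MA24.

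**Figure D4:**
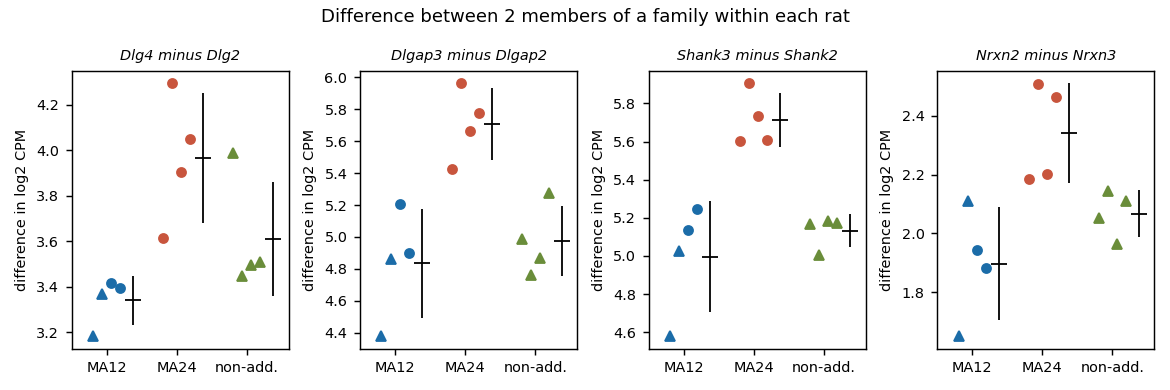
Difference in log2 CPM within each rat between the most and the least counted member of 4 families, with the mean ± SD of each group in black; circles are rats with an N in their number, triangles rats without. MA24 rats lie above all MA12 rats in each panel.

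Among individual rats, MA24 rat 14N stood apart. It was the lowest of all 12 rats for 20 of the 39 members and the lowest of its group for 28. Its median deviation from the gene means was -0.28, against -0.10 to 0.11 in the other 11 rats. Such counts over all genes are not given here, so a trait of the whole library cannot be told from one of the members. Without rat 14N, 3 members passed the test (*Slitrk1*, *Nrxn3* and *Cask*), and the median log2FC of the members was -0.20. Without MA12 rat 21, the lowest rat for 5 members and the highest for 8, the same 3 genes passed, and they also did without MA24 rat 15N. MA24 rat 16N was the lowest of all for 8 members and the highest for 8, among them *Dlg4*, *Dlgap3* and *Shank3*. The heatmap shows these columns.

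**Figure D5:**
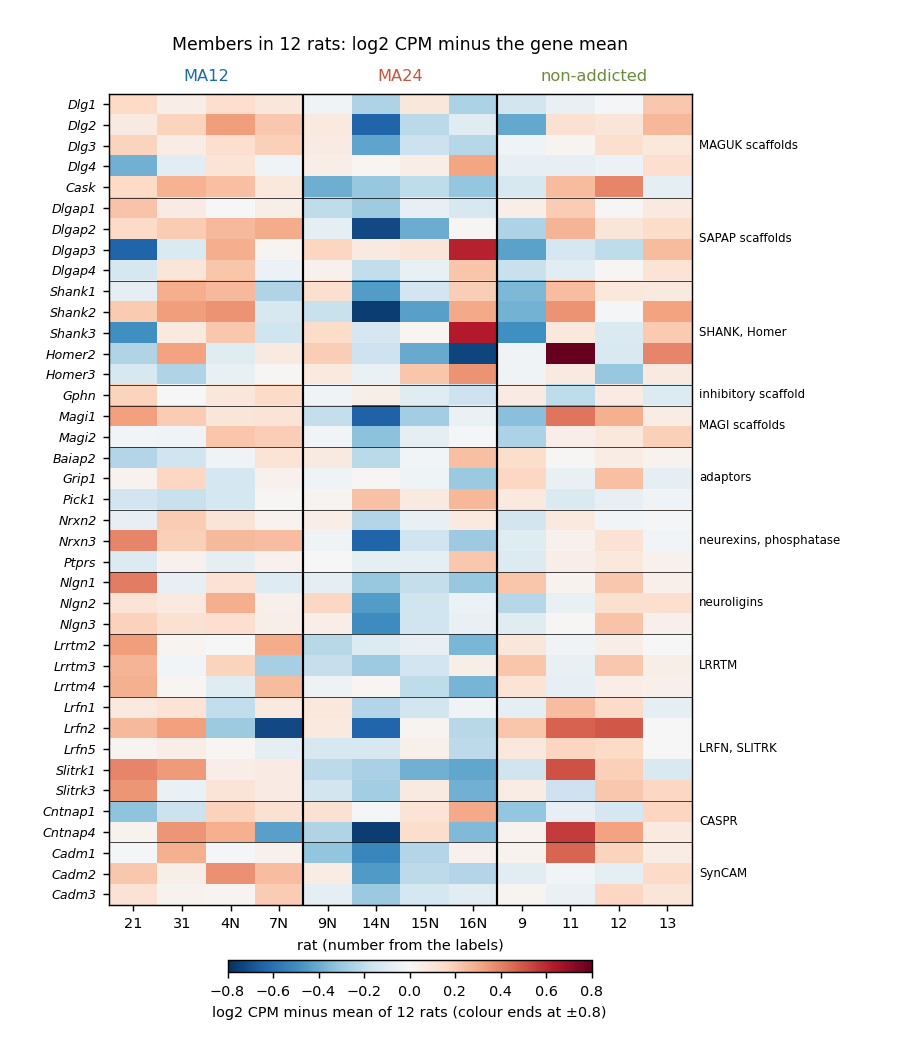
log2 CPM of the 39 members in each of the 12 rats after subtraction of the gene's mean over the rats, ordered by role. Blue is below the mean and red above it, and the column of MA24 rat 14N is blue for 33 of the 39 members.

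The comparison of non-addicted with MA12 rats had no member past the test among the 33 tested, where 0.27% of all genes passed. At an unadjusted p below 0.05 there were 2 members, *Nrxn3* and *Cadm2*, both lower, as were 7.03% of all genes, and DESeq2 and edgeR's likelihood ratio test also called 0. *Nrxn3* had a log2FC of -0.27 (SE 0.09, adjusted p = 0.233) and was the only member whose groups did not overlap, and such lower genes made up 3.6% of all genes. *Cadm2* had -0.23 (SE 0.11, adjusted p = 0.376). The largest value above 0 was that of *Lrfn2*, 0.35 (SE 0.24). It was 0.21 without MA12 rat 7N, 0.033 with only rats numbered without N and 0.019 with the kind of number as a covariate. The fits by kind of number rest on the same contrast of rats. For *Cask* the log2FC was -0.07, with a 95% interval of -0.31 to 0.17, and for *Slitrk1* it was -0.10, with an interval of -0.36 to 0.17. The median over the members was -0.05, against -0.01 over all genes, and became 0.02 without non-addicted rat 9. *Dlg3*, *Dlgap1*, *Pick1*, *Ptprs*, *Lrfn5* and *Cadm3* were removed by the variance filter, and none of the 39 passed without it.

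The comparison of non-addicted with MA24 rats had 38 members tested and none past the test, where 0.549% of all genes passed. At an unadjusted p below 0.05 there were 15 higher members and 1 lower one, against 9.33% and 8.16% of all genes. DESeq2 also called 0, and edgeR's likelihood ratio test called *Cadm1*. Groups did not overlap for 6 members, all higher in non-addicted rats, against 5.1% of all genes: *Cask* (log2FC 0.42, adjusted p = 0.125), *Slitrk1* (0.44, adjusted p = 0.126), *Nlgn1* (0.34, adjusted p = 0.131), *Dlgap1* (0.25, adjusted p = 0.196), *Lrrtm2* (0.21, adjusted p = 0.269) and *Cadm3* (0.20, adjusted p = 0.284). The largest log2FC was that of *Homer2*, 0.54 (SE 0.24), and the lowest that of *Dlgap3*, -0.37 (SE 0.14, adjusted p = 0.191). Without non-addicted rat 13, *Dlgap3* passed at -0.52 (adjusted p = 0.0249), and without MA24 rat 16N it stood at -0.23 (adjusted p = 0.446). *Homer2* was at 0.33 without non-addicted rat 11. *Cntnap4* had 0.53 over all rats, and its value without rat 11 is not given here. *Gphn* was removed by the variance filter. The kind of rat number cannot be told apart from the groups in this comparison, and both comparisons share their rats with MA24 vs. MA12.

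By group means, MA24 was the lowest of the 3 groups for 30 of the 39 members: the order was MA24, non-addicted, MA12 for 20 members and MA24, MA12, non-addicted for 10. For 5 members it ran from MA12 through non-addicted to MA24. How often each order occurs over all genes is not given here. These counts restate the signs of the comparisons with MA24 above, which share its rats. Of the 78 pairs of neighbouring groups in the members' orders, 72 overlapped in log2 CPM (92.3%). Over the 10754 genes tested in MA24 vs. MA12, 95.1% of such pairs overlapped.

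Other genes of the same structures were looked up by name in the same fits. Of 40 further postsynaptic scaffold genes, 36 were in the table and 32 were tested in MA24 vs. MA12: 3 rose, 1 fell, and the median log2FC was -0.19. *Lin7b*, which forms a complex with CASK, rose by 0.55 (SE 0.11, adjusted p = 0.0127), *Begain* by 0.53 (SE 0.11, adjusted p = 0.0146) and *Lzts3* by 0.39 (adjusted p = 0.0422), whereas *Tanc2* fell by 0.52 (SE 0.13, adjusted p = 0.0321). Of 51 further adhesion genes, 49 were in the table and 43 were tested: none rose, 6 fell, and the median was -0.21. Of all genes tested in this comparison, 5.16% passed, 3.32% as lower and 1.84% as higher. The teneurins *Tenm2* and *Tenm4* fell by 0.63 (adjusted p = 0.00727) and 0.68 (adjusted p = 0.0118), and *Ncam2* fell by 0.67 (adjusted p = 0.0110). *Slitrk2* and *Grid1* fell by 0.63 and 0.41. *Lzts3*, *Slitrk2* and *Grid1* were named after their values were seen. Values of the genes in these lists by kind of rat number are not given here. Of all genes, 1.22% passed with N rats only and 0.456% with the kind of number as a covariate.

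With non-addicted rats, no gene of either list passed, where 0.27% of all genes passed against MA12 and 0.549% against MA24. The smallest p among scaffolds were those of *Tanc1*, *Lzts3* and *Lin7b* against MA12 (log2FC -0.43, 0.33 and 0.29) and of *Begain*, *Akap9* and *Cnksr2* against MA24 (-0.38, 0.33 and 0.32). Among adhesion genes they were those of *Grid1*, *Ncam2* and *Mdga1* against MA12 (-0.34, -0.35 and -0.58) and of *Tenm2*, *Mdga2* and *Tenm4* against MA24 (0.42, 0.50 and 0.42).

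Markers of other cells and regions were read beside the members. In MA24 vs. MA12, 0 of 11 tested projection neuron markers passed, where 5.16% of all genes did. The thalamic markers, 5 of 6 in the table, summed to 34.6 to 63.4 CPM in MA12, 29.6 to 34.5 in MA24 and 29.3 to 74.5 in non-addicted rats, and 1 of 4 tested fell (*Prkcd*, by 0.94). These sums did not overlap between MA12 and MA24, but came as near as 34.58 and 34.45 CPM. *Prkcd* itself overlapped between these groups, and *Tcf7l2*, *Lef1* and *Gbx2* had edgeR adjusted p from 0.462 to 0.790. Among 7 astrocyte markers *Slc1a2* and *Sox9* fell, among 9 vascular markers *Rgs5* and among 7 interneuron markers *Nos1*. Each of these genes overlapped between the groups. Of 8 oligodendrocyte markers none passed, with sums of 12440 to 22150 CPM in MA12 and 18370 to 21660 in MA24, and 0 of 7 microglial, 0 of 6 hypothalamic, 0 of 5 cortical and 0 of 7 choroid plexus and ependymal markers tested did. Of the cortical markers, *Slc17a7* had a log2FC of 1.03 (edgeR adjusted p = 0.069) and *Cux2* -0.45 (adjusted p = 0.101), both with overlapping groups. *Pmch*, a hypothalamic marker, was at 0 in every rat. Of 3 nuclear-retained RNAs in the table *Snhg11* rose by 0.58. In non-addicted rats 3 vascular markers were lower than in MA12, where 0.27% of all genes passed. Against MA24, where 0.549% of all genes passed, 2 vascular markers, *Mbp* and *Rmrp* were lower and *Foxj1* higher. Marker values by kind of rat number are not given here. The part of these cells in the members' values was not tested.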

How the data were processed

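RNA from the striatum of each rat was sequenced as poly-A libraries. The authors trimmed reads with Cutadapt (1.18 in the submitters' processing notes), aligned them to rn6 with STAR (2.7.0e) and deposited raw counts per gene, with no normalization. The paper names featureCounts, and the notes also name HTSeq (0.12.4), whose role is not given in the sources used here, nor is the strand setting, so reads of overlapping or antisense genes could be shared. All 12 columns were used.

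Counts were analysed in R 4.3.3 with edgeR 4.0.16 (TMM, glmQLFit and glmQLFTest), each pair of groups on its own. A gene entered if its 8 libraries averaged more than 4 counts, and of these genes the least variable 15% in log2 CPM were dropped. A gene passed at a Benjamini-Hochberg adjusted p below 0.05 over all genes tested, two-sided, and a DEG also had a fold change of at least 1.5. Log2 CPM used a prior count of 2. Tables and plots were made with Python 3.11.15. The fit was tested on simulated counts, where 200 genes were changed 2-fold. It recovered 70.0 to 75.0% of them in the 3 comparisons, with 4 to 9 false calls. Changes under 1.5-fold, such as those of the called members, were not simulated. Members, gene lists, marker lists and alternatives were chosen with earlier results of these data known. Named were members past the test or with groups apart, the most counted member of each role, the extremes of each comparison and, of the other lists, the 3 genes of smallest p. The value of 1 gene of the other lists is not reported here. DESeq2 1.42.0, other scalings, filters, single rats left out and the kind of rat number were alternatives. Rats are separate animals, so the spread between them is biological as well as technical; no 2 libraries of a group agreed within sampling noise (chi-square per degree of freedom 9.72 to 28.0). Group sizes of 4 and counts as low as 51 limit the precision.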

Additional observations from a re-analysis of the deposited data

Results flagged for a closer look

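Within the 3 groups of 4 rats, each of the 39 members was checked for a rat far from the others, taken as a gap to the nearest rat above 0.829 of the group's range. Of 117 checks, 5 met this, where chance gives about 5.85. *Dlg4* was highest in MA24 rat 16N (ratio 0.867), at 10.97 log2 CPM against 10.67 to 10.71 in the other MA24 rats, and in non-addicted rat 13 (ratio 0.897), at 10.79 against 10.59 to 10.61. *Grip1* was lowest in MA24 rat 16N (ratio 0.853), with 402 counts against 495 to 592. *Lrfn1* was lowest in MA12 rat 4N (ratio 0.891), at 4.32 log2 CPM against 4.59 to 4.63. *Cadm1* was highest in MA12 rat 31 (ratio 0.837), with 2085 counts against 1298 to 1683.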

How the results depend on the processing

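In MA24 vs. MA12, the 6 members past the test became 8 with DESeq2 and with the likelihood ratio test, 4 with RLE factors and without the variance filter, 7 with no filter, 5 when every library had to hold 10 counts and 6 with all 3 groups in the fit. The count was 3 when variance was ranked on CPM without TMM, a choice added after seeing the data. With 1 rat left out it ran from 3 to 8, and it was 3 without MA12 rat 21, MA24 rat 14N or MA24 rat 15N. It was 0 with only rats numbered with N and 0 with the kind of number as a covariate. These fits rest on the same contrast of rats, and the cause of the lost calls was not tested. The median log2FC stayed below 0 throughout, between -0.26 and -0.20. *Baiap2* changed sign to -0.0049 with only N rats and to -0.021 with the covariate, and *Cntnap1* to -0.0080 and -0.025. In non-addicted vs. MA12 the count stayed at 0 in every alternative run. In non-addicted vs. MA24 it was 1 with the likelihood ratio test and 0 to 1 with 1 rat left out. Of 504 refits of single named members, 456 kept direction and side of the threshold, 38 lost the call, 6 gained it and 4 reversed. Group means of log2 CPM moved by at most 0.025 with a prior count of 0.5. No paired analysis was possible because each rat number marks a different animal.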
